A study of Mus musculus with 72 samples.

Results

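Csnk1d, Csnk1e, Csnk1a1, Gsk3b, Btrc, Fbxw11 and Fbxl21 encode enzymes that phosphorylate the period (PER) and cryptochrome (CRY) proteins of the circadian clock or mark them for degradation. These 7 genes were taken by name from the 20239 genes with a symbol in the array's annotation, and all 7 of the 7 named genes were found, each with 1 probe set. Their transcripts were measured in the tibialis anterior (TA), a fast muscle, and the soleus (SOL), a slow postural muscle, of 36 mice, all male, C57BL/6 and 5 months old. The 18 mKO animals carried floxed Bmal1 and a Cre recombinase under the Mlc1f promoter, a fast myosin light chain promoter active in muscle fibres, and the 18 Ctrl animals were Cre-negative littermates, so an effect of Cre itself and the loss of Bmal1 cannot be told apart. Both muscles were collected at Zeitgeber time (ZT) 0, 4, 8, 12, 16 and 20, where ZT0 is the start and ZT12 the end of the light phase, from 3 animals per genotype and time, which gave 24 groups of 3 arrays. Values are log2 signals, differences are in log2 units, and no level of one gene is set against that of another.

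Bmal1 and its partner switch on the Per and Cry genes, whose proteins then shut off Bmal1's activity. Casein kinases 1 delta and epsilon (Csnk1d, Csnk1e) phosphorylate PER proteins, and the F-box proteins beta-TrCP1 (Btrc) and beta-TrCP2 (Fbxw11) recognise the phosphorylated form and direct it to the proteasome, so these enzymes help set the pace of the cycle. FBXL21 is an F-box protein that binds CRY proteins and, in mouse muscle, also directs degradation of the sarcomere protein TCAP after phosphorylation by GSK-3 beta. Casein kinase 1 alpha (Csnk1a1) and GSK-3 beta (Gsk3b) are broadly acting kinases with clock proteins among their substrates.

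The RefSeq promoter table (GRCm38.p6) held 4 of the 7 genes, and the sequence before the outermost start of Csnk1e is shown because this gene carried the genotype result. It covers 250 bases at chr15:79442144-79442393, minus strand, up to the annotated start.

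Csnk1e promoter: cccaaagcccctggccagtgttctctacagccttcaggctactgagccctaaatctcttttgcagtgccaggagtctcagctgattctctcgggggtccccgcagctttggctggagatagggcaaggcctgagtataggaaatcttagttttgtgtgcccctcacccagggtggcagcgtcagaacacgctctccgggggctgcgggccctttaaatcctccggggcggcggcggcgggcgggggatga

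Capitals were reserved for matches, on either strand, to the E-box CACGTG, the related CACGTT, the D-box TTATGTAA or TTACGTAA, and AGGTCA, the core of the element that REV-ERB and ROR receptors bind. There are none, neither here nor in the 4 windows of 300 bases listed for Csnk1e, each with 250 bases before and 50 after a start. The windows of Fbxl21 (chr13:56522222-56522521), Fbxw11 (chr11:32642305-32642604) and Gsk3b (chr16:38088751-38089050), all on the plus strand, held none either. Of all 32851 windows in the table, 7.15% held CACGTG, 4.68% CACGTT, 1.06% a D-box, 16.3% AGGTCA and 26.8% at least 1 of them. No match says only that these letters are not in these windows.

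Array medians ran between 6.67 and 6.84. Summed slow fibre markers lay at 10.4 to 11.2 in TA and 15.6 to 15.9 in SOL, and summed fast fibre markers at 16.0 to 16.2 in TA and 14.4 to 15.2 in SOL, so the markers separated the muscles as labelled. The probe set of Arntl, the gene of BMAL1, averaged 8.14 in mKO TA and 8.21 in Ctrl TA, and 7.90 in mKO SOL and 7.81 in Ctrl SOL. Whether its probes lie inside the floxed stretch is not stated, so its level does not check the deletion; its daily amplitude was 0.33 in mKO TA against 1.09 in Ctrl TA, and 0.59 in mKO SOL against 1.34 in Ctrl SOL. The TA array of 1 Ctrl animal at ZT0 (replicate A) carried liver transcripts, with a mean level over 7 liver genes of 11.4 where its group mates had 5.97 and 5.37. Over all other arrays of both muscles this mean ran from 4.93 to 8.11. The animals' identification numbers fall into the series BM3 (23 animals), BM2* (7) and BM2 (6), whose meaning the labels do not give and which were treated as possible batches. All animals of ZT0 and ZT4 are BM3 and none of ZT12 are. At ZT20 the 3 mKO animals are BM2 and the 3 Ctrl animals BM3, so series and genotype cannot be told apart at ZT20. They are also unbalanced at ZT16, where the mKO animals are 3 of BM3 and the Ctrl animals 1 of BM3 and 2 of BM2*. At ZT12 the mKO animals are 1 of BM2 and 2 of BM2*, and the Ctrl animals 2 of BM2 and 1 of BM2*.

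Csnk1e was lower in mKO in both muscles. In TA its level ran from 9.87 to 10.2 in mKO, with a median of 10.1, against 10.2 to 10.6 in Ctrl, with a median of 10.3. The mean over the 6 times differed by -0.27 ± 0.03 (SE, 18 arrays per genotype; 0.83-fold, limma adjusted p = 1.63e-07). In SOL it ran from 9.61 to 10.0 in mKO, with a median of 9.80, against 9.78 to 10.3 in Ctrl, with a median of 10.1, and the difference was -0.25 ± 0.03 (0.84-fold, limma adjusted p = 2.16e-06). The 95% intervals of -0.33 to -0.20 in TA and -0.31 to -0.18 in SOL overlap widely. The TA difference less the SOL difference was -0.02 ± 0.04 (limma adjusted p = 0.909), with an interval of -0.11 to 0.07, so a difference between muscles was not shown. Csnk1e was the only 1 of the 7 genes past the adjusted threshold of 0.05 in either muscle, where 14.8% of all genes passed in TA (8.06% as lower) and 7.1% in SOL (3.54% as lower). The muscles are bulk tissue, in which fewer cells of a type and less RNA per cell cannot be told apart.

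Taken by time, Csnk1e stood lower in mKO at 6 of 6 times in both muscles. At ZT0 the mKO TA arrays had 10.08, 9.98 and 10.22, against 10.29, 10.31 and 10.22 in Ctrl TA, and at ZT4 10.13, 10.03 and 10.06 against 10.28, 10.18 and 10.20. At ZT8 the mKO TA arrays had 10.06, 10.09 and 10.07, against 10.33, 10.36 and 10.27 in Ctrl TA. The groups touched at ZT0 and were separate at ZT4 and ZT8. At ZT12 the mKO TA arrays had 10.05, 9.87 and 10.16, against 10.57, 10.31 and 10.38 in Ctrl TA. At ZT16 they had 10.09, 10.06 and 10.11, against 10.45, 10.36 and 10.44, and at ZT20 10.14, 10.09 and 9.97, against 10.35, 10.48 and 10.29. All 3 mKO arrays lay under all 3 Ctrl arrays at ZT12, ZT16 and ZT20, as at ZT4 and ZT8.

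The same order held in SOL with more overlap by day. At ZT0 the mKO SOL arrays had 9.83, 9.74 and 9.65, against 9.79, 10.06 and 9.99 in Ctrl SOL, and at ZT4 9.73, 9.79 and 9.61 against 9.92, 9.82 and 9.78. At ZT8 they had 9.94, 9.76 and 9.73, against 9.94, 9.97 and 9.91. In each of these 3 comparisons the highest mKO array reached the range of Ctrl. At ZT12 the mKO SOL arrays had 9.91, 9.71 and 9.82, against 10.21, 10.09 and 10.17 in Ctrl SOL. At ZT16 they had 10.01, 9.86 and 9.87, against 10.30, 10.14 and 10.18, and at ZT20 9.88, 9.77 and 9.81, against 10.26, 10.19 and 10.13. The groups did not overlap at these times.

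**Figure D1:**
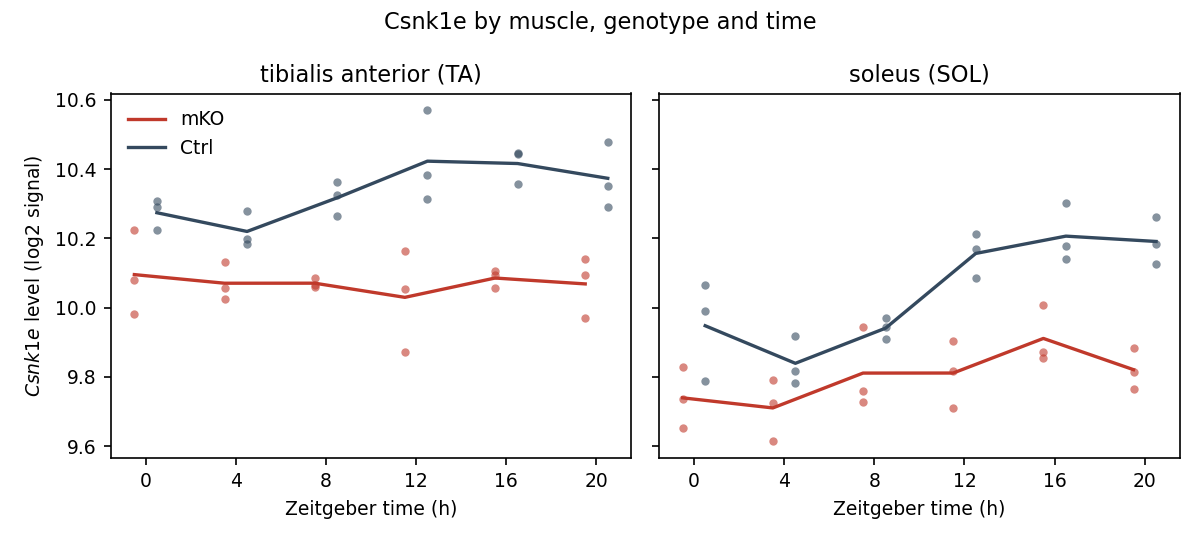
Csnk1e level (log2 signal) in TA (left) and SOL (right) at 6 Zeitgeber times; points are single arrays (3 per group), shifted sideways by genotype, and lines join group means, with mKO in red and Ctrl in dark blue. The mKO line lies under the Ctrl line at 6 of 6 times in both muscles, with the wider gaps from ZT12 on.

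The groups of 3 did not overlap in TA at ZT4, ZT8, ZT12, ZT16 and ZT20, an arrangement with mKO below Ctrl that 9.19%, 6.51%, 8.51%, 7.04% and 8.55% of all genes showed at those times. In SOL they did not overlap at ZT12, ZT16 and ZT20, as for 5.37%, 4.88% and 7.59% of all genes. Single times passed the threshold in TA at ZT12 (-0.39 ± 0.08, limma adjusted p = 0.002), ZT16 (-0.33 ± 0.08, limma adjusted p = 0.014) and ZT20 (-0.31 ± 0.08, limma adjusted p = 0.0294), where 2.52%, 2.02% and 1.99% of all genes did. In SOL they passed at ZT12 (-0.35 ± 0.08, limma adjusted p = 0.0267) and ZT20 (-0.37 ± 0.08, limma adjusted p = 0.0111), where 0.751% and 1.04% of all genes did, and no other of the 7 genes passed at any time. The backgrounds at the other times were 1.63%, 1.67% and 2.03% in TA at ZT0, ZT4 and ZT8, and 0.553%, 0.44%, 0.86% and 0.944% in SOL at ZT0, ZT4, ZT8 and ZT16. The smallest difference was -0.15 in TA (ZT4) and -0.13 in SOL (ZT4 and ZT8), none past the threshold.

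Except for TA at ZT12, these single-time calls depended on single arrays. In SOL the ZT12 call was lost without mKO replicate B or C or Ctrl replicate A or C of that time (adjusted p from 0.0887 to 0.181, differences from -0.35 to -0.30), and the ZT20 call without mKO replicate B or C or Ctrl replicate A (0.0573 to 0.0902, -0.37 to -0.33). In TA the ZT16 call was lost without mKO replicate B or Ctrl replicate A or C (0.0657 to 0.0733, -0.32 in each case), and the ZT20 call without mKO replicate B or C or Ctrl replicate A or B (0.0738 to 0.23, -0.32 to -0.25). With the identification series as a term, the calls in SOL at ZT12 (-0.33, limma adjusted p = 0.0555) and ZT20 (-0.33, limma adjusted p = 0.732) and in TA at ZT20 (-0.31, limma adjusted p = 0.57) were lost. The means over all times kept their calls without any 1 of the 36 animals, between -0.28 and -0.25 in TA and between -0.26 and -0.24 in SOL.

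**Figure D2:**
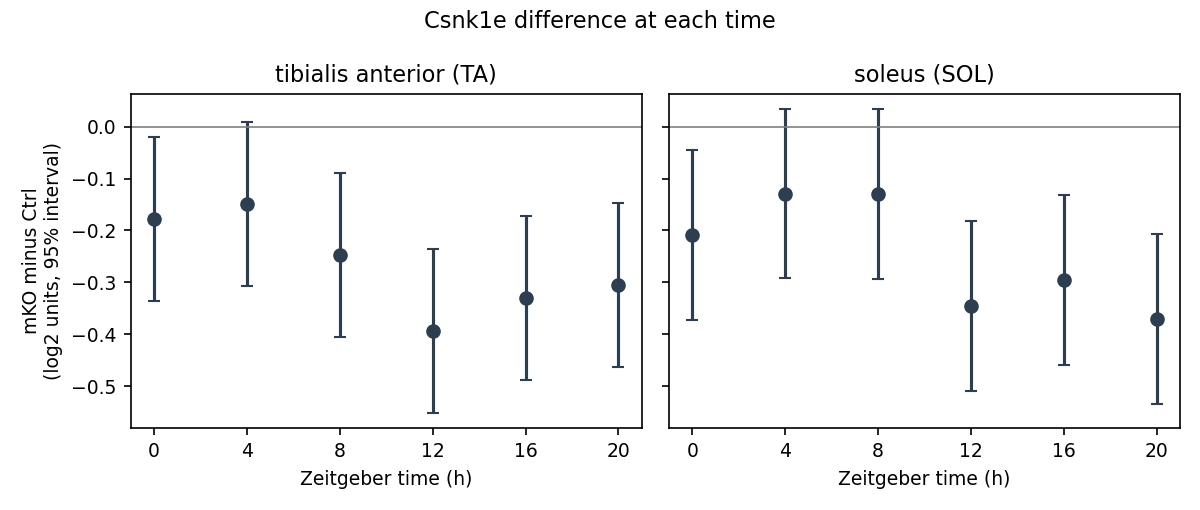
Difference of Csnk1e, mKO minus Ctrl (log2 units), at each Zeitgeber time in TA (left) and SOL (right), with 95% intervals of the limma fit (3 arrays per genotype and time). Every estimate lies below 0, between -0.39 and -0.15 in TA and between -0.37 and -0.13 in SOL.

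Within the BM3 animals the Csnk1e difference was -0.22 ± 0.04 in TA (limma adjusted p = 0.000962) and -0.19 ± 0.05 in SOL (limma adjusted p = 0.036). Within the BM2 and BM2* animals it was -0.34 ± 0.09 in TA and -0.30 ± 0.07 in SOL, and neither passed the threshold over all genes (limma adjusted p = 0.081 and 0.0824). Without ZT20 it was -0.26 in TA and -0.22 in SOL, and without the animal with liver transcripts -0.27 and -0.26, all past the threshold. Summed levels of the markers of endothelium, fibroblasts and tendon, macrophages, adipocytes, Schwann cells, smooth muscle and satellite cells overlapped between mKO and Ctrl in both muscles. In TA, Tagln was lower in mKO, 1 of 4 smooth muscle markers (summed level 10.3 to 10.9 in mKO and 10.4 to 11.1 in Ctrl), and Myl3 higher, 1 of 6 slow fibre markers (10.5 to 11.2 and 10.4 to 11.2). In SOL, Kdr was higher in mKO, 1 of 5 endothelial markers (11.6 to 12.0 in mKO and 11.5 to 12.1 in Ctrl), and of 6 fibroblast and tendon markers Scx was higher and Fmod lower (11.4 to 12.3 and 11.7 to 12.6). Also in SOL, Mbp was lower in mKO, 1 of 3 Schwann cell markers (8.35 to 8.64 in mKO and 8.37 to 8.73 in Ctrl), as were Myh7, Tnnc1 and Tnnt1, 3 of 6 slow fibre markers (15.6 to 15.8 and 15.7 to 15.9), and Actn3, 1 of 6 fast fibre markers (14.4 to 15.2 and 14.6 to 15.2). Their part in the Csnk1e difference was not tested.

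The other kinases did not pass the test in either muscle. Csnk1d, the closest relative of Csnk1e, ran from 9.50 to 9.77 in mKO TA against 9.58 to 9.82 in Ctrl TA, a difference of -0.05 ± 0.03 with an interval of -0.11 to 0.01 (limma adjusted p = 0.248). In SOL it ran from 9.23 to 9.50 in mKO against 9.21 to 9.53 in Ctrl, a difference of 0.02 ± 0.03 with an interval of -0.04 to 0.08. The ranges lay on top of each other in both muscles. Csnk1a1 ran from 10.3 to 10.6 in mKO TA against 10.3 to 10.5 in Ctrl TA, and from 10.4 to 10.6 in mKO SOL against 10.3 to 10.6 in Ctrl SOL. It differed by 0.01 ± 0.03 in TA and 0.03 ± 0.03 in SOL, with both intervals inside -0.06 and 0.09. Gsk3b ran from 9.72 to 10.1 in mKO TA against 9.90 to 10.3 in Ctrl TA, a difference of -0.07 ± 0.04 (limma adjusted p = 0.21), and differed by 0.04 ± 0.03 in SOL (limma adjusted p = 0.635). With arrays weighted by quality, Csnk1d (-0.08, limma adjusted p = 0.0173) and Gsk3b (-0.09, limma adjusted p = 0.0417) passed in TA as well. Under that setting more of all genes passed in TA than the 14.8% of the main fit.

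The F-box genes likewise stayed short of the threshold. Btrc ran from 9.59 to 9.81 in mKO TA against 9.58 to 9.90 in Ctrl TA, and from 9.47 to 10.0 in mKO SOL against 9.50 to 9.90 in Ctrl SOL. It differed by -0.02 ± 0.03 in TA and 0.01 ± 0.04 in SOL, with intervals of -0.07 to 0.04 and -0.06 to 0.08. Fbxw11 ran from 9.08 to 9.42 in mKO TA against 9.14 to 9.55 in Ctrl TA, and from 8.76 to 9.23 in mKO SOL against 8.81 to 9.19 in Ctrl SOL. It differed by -0.06 ± 0.03 in TA, with an interval of -0.13 to 0.01, and by 0.05 ± 0.04 in SOL, with an interval of -0.03 to 0.13. Fbxl21 had levels between 5.12 and 5.93 in mKO TA against 5.09 and 6.12 in Ctrl TA, and between 5.40 and 5.90 in mKO SOL against 5.40 and 5.84 in Ctrl SOL. These lie below the array medians, no detection calls were used here, and whether the probe set measured the transcript above background was not tested. Its difference was -0.02 ± 0.07 in TA, with an interval of -0.16 to 0.12, and 0.06 ± 0.05 in SOL, with an interval of -0.04 to 0.17, the widest of the 7 genes in both muscles.

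**Figure D3:**
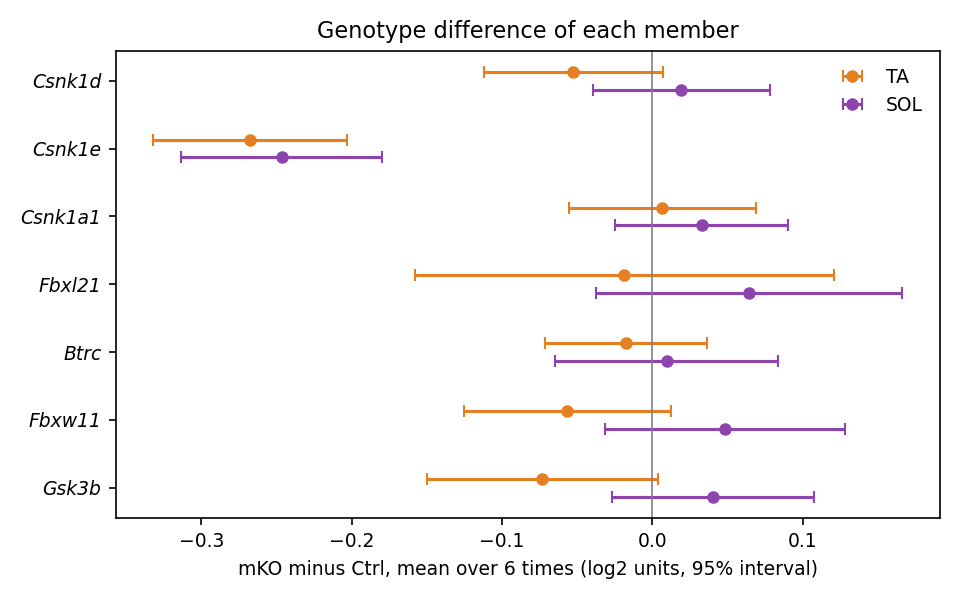
Difference mKO minus Ctrl of each of the 7 genes, as the mean over 6 times (log2 units), with 95% intervals of the limma fit on 18 arrays per genotype, TA in orange above SOL in purple. Csnk1e lies at -0.27 in TA and -0.25 in SOL, and the intervals of the other genes include 0.

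Across the 6 genes other than Csnk1e, the 3 mKO arrays did not overlap with the 3 Ctrl arrays in 4 of 72 comparisons. The share of all genes over both directions and all times was not counted. In TA at ZT4, 9.19% of all genes lay below Ctrl in this way and 9.1% above, so the 4 are not read as a result about these genes. Fbxw11 lay below Ctrl in TA at ZT4 and ZT20, as 9.19% and 8.55% of all genes did, and above Ctrl in SOL at ZT8, as 8.37% did. At ZT4 its mKO TA arrays had 9.18, 9.30 and 9.33, against 9.41, 9.34 and 9.36 in Ctrl TA, and at ZT20 they had 9.35, 9.31 and 9.25, against 9.35, 9.48 and 9.37, where the nearest arrays were almost level. At ZT8 the mKO SOL arrays had 9.10, 8.99 and 8.995, against 8.95, 8.87 and 8.97 in Ctrl SOL. Csnk1a1 lay above Ctrl in TA at ZT4, as 9.1% did, with 10.42, 10.56 and 10.43 in mKO and 10.40, 10.34 and 10.38 in Ctrl. None of these 4 differences passed the test (limma adjusted p from 0.737 to 0.887). Gsk3b in TA at ZT16 had 9.85, 10.04 and 9.85 in mKO, against 10.02, 10.12 and 10.17 in Ctrl, a difference of -0.19 ± 0.09 (limma adjusted p = 0.564) with 1 mKO array inside the range of Ctrl. The 7 genes had a median difference of -0.05 in TA and 0.03 in SOL, where the medians of all genes were 0.02 and 0.00091.

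Csnk1e was also the 1 gene of the 7 whose level passed the test for a 24 h rhythm, in Ctrl SOL, where 6.05% of all genes passed. Its amplitude, the distance from mean to peak of a fitted cosine, was 0.20 ± 0.03 with a peak at ZT16.2 (limma adjusted p = 0.000114), and the group means ran between 9.84 at ZT4 and 10.2 at ZT16. Within the BM3 animals the amplitude in Ctrl SOL was 0.24, from a fit with no Ctrl array at ZT12 and 1 at ZT16, so it holds little about the peak. In mKO SOL it was 0.08 ± 0.03 with a peak at ZT15.2 (limma adjusted p = 0.226), where 0 of the 7 genes and 5.68% of all genes passed; at an unadjusted p under 0.05, 2 of the 7 did. The amplitude difference was -0.12 ± 0.04. The rhythm difference was tested on the cosine and sine terms together, so that peak time counts as well as amplitude. It did not pass over all genes (limma adjusted p = 0.942, limma unadjusted p = 0.0296), and only 0.0395% of all genes passed that test.

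In TA, Csnk1e had an amplitude of 0.02 ± 0.03 in mKO (limma adjusted p = 0.973) and 0.10 ± 0.03 in Ctrl, with a Ctrl peak at ZT15.0 (limma adjusted p = 0.115). None of the 7 genes passed in mKO TA (0 at an unadjusted p under 0.05 as well) or in Ctrl TA (2 at an unadjusted p under 0.05), where 1.76% and 2.7% of all genes passed. With genes above the median level only, or after quantile normalisation, Csnk1e passed in Ctrl TA (limma adjusted p = 0.0497 and 0.0383). The mKO and Ctrl amplitudes differed by -0.08 ± 0.04. The joint test of the cosine and sine differences did not pass (limma adjusted p = 0.999, limma unadjusted p = 0.0291), where 0.104% of all genes passed. The Ctrl rhythms of TA and SOL were not shown to differ (limma adjusted p = 0.499), with 0 of the 7 genes (1 at an unadjusted p under 0.05) and 0.524% of all genes past that threshold. Peaks at ZT15.0 and ZT16.2 differ by less than their standard errors of 1.08 h and 0.593 h added together.

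The other 6 genes passed no rhythm test. Fbxl21 in Ctrl TA had the widest span of the 7 genes, with group means between 5.42 at ZT16 and 5.89 at ZT8 and an amplitude of 0.18 ± 0.06 (limma adjusted p = 0.318), against 0.08 ± 0.06 in mKO TA. Its arrays at ZT8 were 5.71, 5.73 and 5.53 in mKO TA and 6.12, 5.62 and 5.92 in Ctrl TA, and at ZT16 5.48, 5.12 and 5.93 in mKO TA and 5.09, 5.62 and 5.54 in Ctrl TA, so the groups overlapped at both times. Csnk1d had amplitudes of 0.08 ± 0.03 in mKO SOL and 0.06 ± 0.03 in Ctrl SOL, with peaks at ZT10.4 and ZT11.2, and Btrc 0.09 ± 0.04 and 0.07 ± 0.04, with peaks at ZT10.5 and ZT8.02 and the highest group mean at ZT12 in both genotypes; none passed the threshold. In Csnk1a1 the largest amplitude was 0.04, in mKO TA, in Gsk3b 0.06, in Ctrl TA, and in Fbxw11 0.09, in Ctrl TA.

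**Figure D4:**
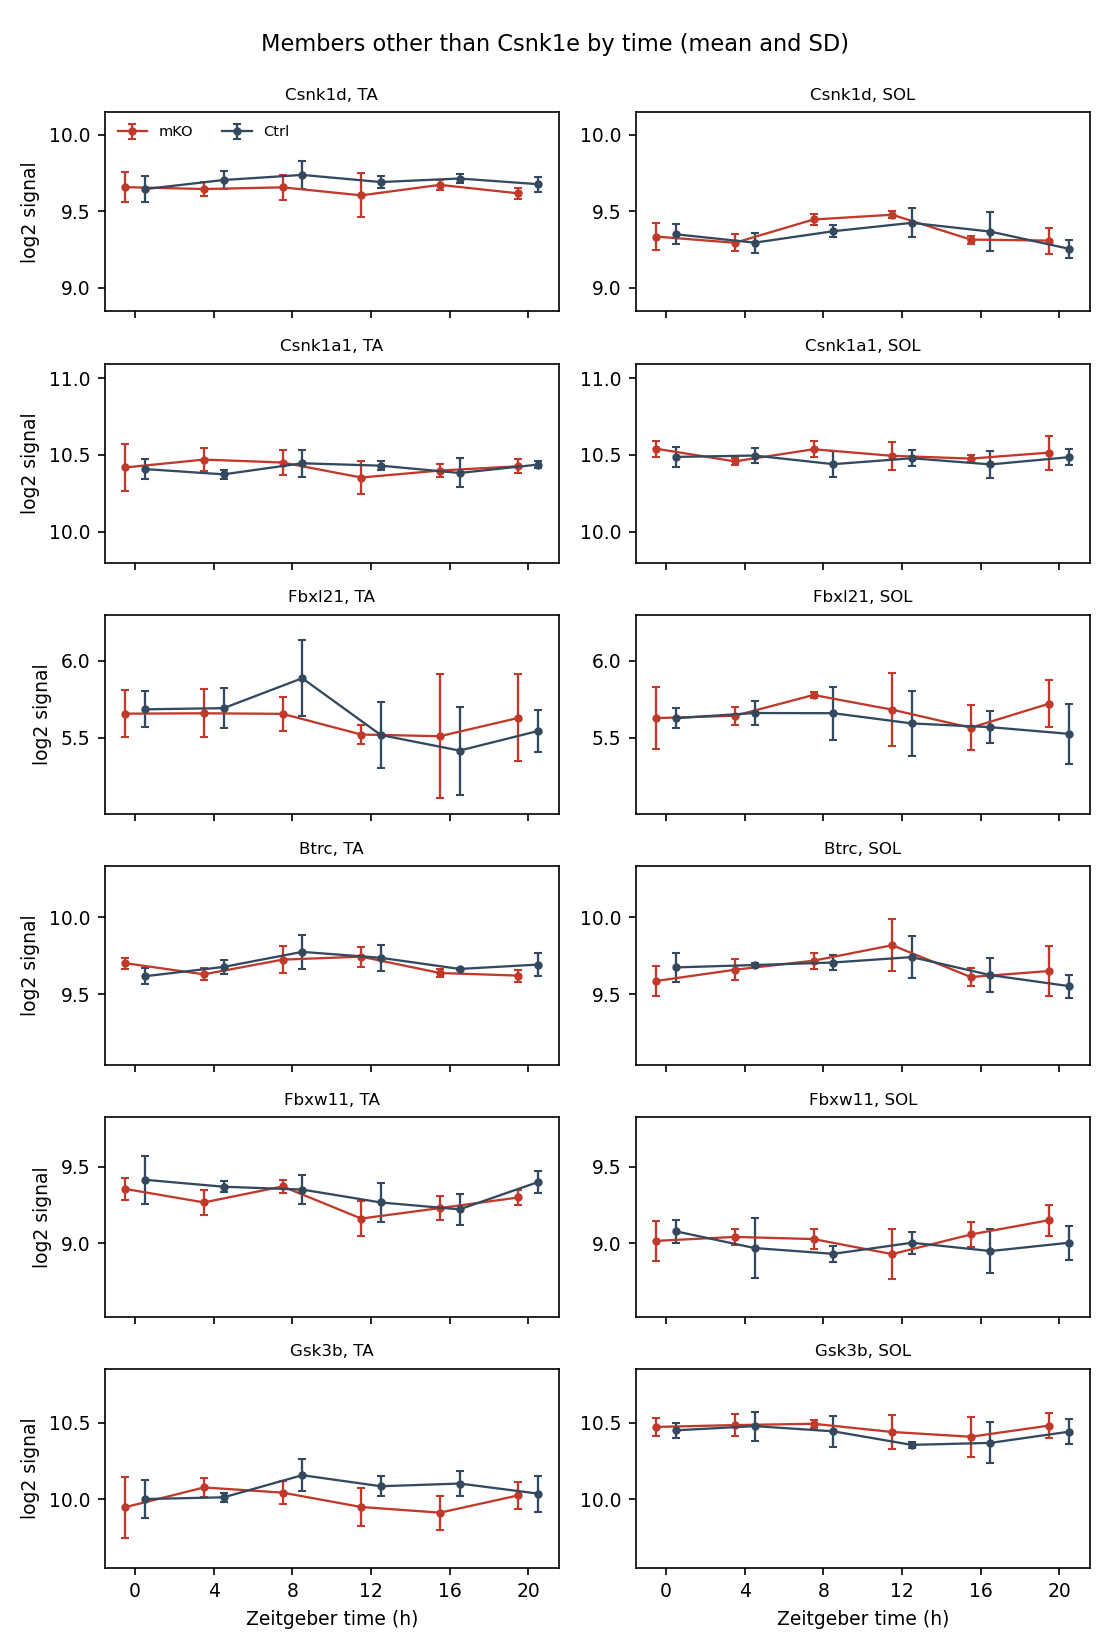
Level (log2 signal, mean and SD of 3 arrays) of the 6 genes other than Csnk1e over Zeitgeber time in TA (left column) and SOL (right column), mKO in red and Ctrl in dark blue; each panel spans the same height. The 2 genotypes run together in most panels, and Fbxl21 has the largest SDs.

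Between muscles, 4 genes differed in both genotypes. TA minus SOL was taken within each animal, and Csnk1e was higher in TA in 18 of 18 mKO animals (0.09 to 0.57, median 0.25) and 18 of 18 Ctrl animals (0.09 to 0.50, median 0.28). Its mean difference was 0.27 ± 0.03 in mKO (limma adjusted p = 4.86e-09) and 0.29 ± 0.03 in Ctrl (limma adjusted p = 1.06e-09). Csnk1d was higher in TA in 17 of 18 mKO and 18 of 18 Ctrl animals. Its mean difference was 0.28 ± 0.03 in mKO (limma adjusted p = 2.38e-09) and 0.35 ± 0.03 in Ctrl (limma adjusted p = 1.69e-11), with single animals from -0.0048 to 0.43 in mKO and from 0.16 to 0.54 in Ctrl. Csnk1e and Csnk1d thus went the same way, while the kinases Gsk3b and Csnk1a1 did not. Fbxw11 was higher in TA in 17 of 18 mKO and 18 of 18 Ctrl animals. Its mean difference was 0.24 ± 0.04 in mKO (limma adjusted p = 4.04e-06) and 0.35 ± 0.04 in Ctrl (limma adjusted p = 6.37e-09), with single animals from -0.0062 to 0.53 in mKO and from 0.09 to 0.56 in Ctrl.

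Gsk3b went the other way and was lower in TA in 18 of 18 mKO animals (-0.81 to -0.23, median -0.44) and 18 of 18 Ctrl animals (-0.58 to -0.12, median -0.37). Its mean difference was -0.47 ± 0.04 in mKO (0.72-fold, limma adjusted p = 1.02e-11) and -0.36 ± 0.04 in Ctrl (0.78-fold, limma adjusted p = 4.28e-09). Higher in TA in every mKO animal were 7.39% of all genes and lower in every one 7.39%, and for Ctrl 8.04% and 6.58%. Csnk1a1 was slightly lower in TA, in 15 of 18 mKO animals (-0.08 ± 0.03, limma adjusted p = 0.0169) and in 14 of 18 Ctrl animals (-0.06 ± 0.03, limma adjusted p = 0.11); the mKO call was lost with the identification series as a term (-0.07, limma adjusted p = 0.179), and the Ctrl difference passed after quantile normalisation (-0.09, limma adjusted p = 0.00798).

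Btrc differed by 0.0025 ± 0.03 in mKO and 0.03 ± 0.03 in Ctrl, with intervals of -0.06 to 0.06 and -0.03 to 0.09, and was higher in TA in 10 of 18 animals of either genotype. Fbxl21 differed by -0.06 ± 0.06 in mKO and 0.02 ± 0.06 in Ctrl, with TA higher in 6 of 18 mKO and 9 of 18 Ctrl animals. The count of 5 of 7 genes called in mKO and 4 of 7 in Ctrl stands beside 48.2% and 42.9% of all genes, so differences between these muscles were common. No difference between muscles was shown to depend on genotype: 0 of the 7 genes and 2.71% of all genes passed that limma test, and 1 gene had an unadjusted p under 0.05. That gene was Gsk3b, for which the muscle difference in mKO less that in Ctrl was -0.11 ± 0.06 (limma adjusted p = 0.421), followed by Fbxw11 at -0.10 ± 0.05 (limma adjusted p = 0.483).

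**Figure D5:**
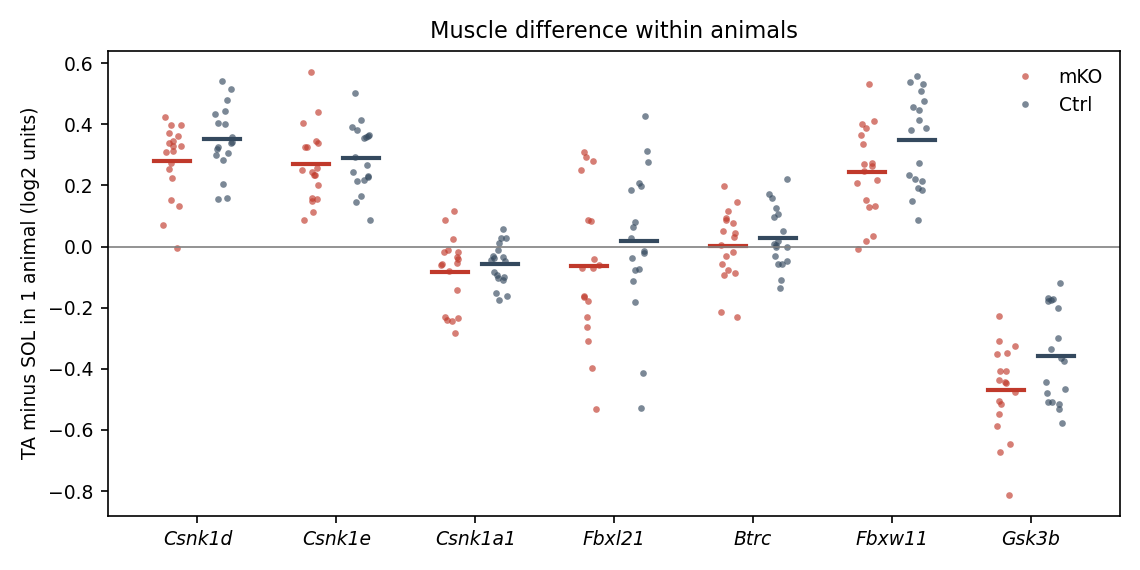
TA minus SOL in each animal (log2 units) for the 7 genes, mKO in red left of Ctrl in dark blue; points are 18 animals per genotype and bars their means. Csnk1d, Csnk1e and Fbxw11 lie above 0 in all but 1, 0 and 1 of the mKO animals and in all Ctrl animals, Gsk3b lies below 0 in all animals, Csnk1a1 lies below 0 in 15 of 18 mKO and 14 of 18 Ctrl animals, and Btrc and Fbxl21 scatter around 0.

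Over the 24 group means, after each muscle's own mean was taken away, the courses most like that of Csnk1e were those of Ubr2, a ubiquitin ligase (Pearson r = 0.962), Hivep2, a zinc finger transcription factor (0.957), and Dgat2, which makes triglyceride (0.956). For Csnk1d they were Mepce (0.873), Tubgcp3 (0.834) and Med12 (0.818), and for Btrc Xab2 (0.857), Gigyf1 (0.829) and Aim2 (0.808). The best matches of Csnk1a1 were Rars2 (0.71), Tmem69 (0.689) and Arhgap12 (0.681), and those of Gsk3b were Taok1 (0.732), Rnf13 (0.715) and Atn1 (0.7). Fbxl21 had Tpst1 (0.773), Plekhb1 (0.766) and Fubp3 (0.765), and Fbxw11 had Zc3h12c (0.768), Samd8 (0.734) and Meis1 (0.733). Among the 7 genes themselves the highest r was 0.667, between Csnk1d and Btrc, and the lowest -0.329, between Csnk1e and Fbxl21, while Csnk1e and Csnk1d had 0.215. These are descriptions, since the points share arrays, animals and time. Each match is among the highest r of all genes over 24 points, and how high r would reach for unrelated genes was not tested.

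Of 14 measured enzymes that add or remove phosphate on clock proteins, other than the 7 genes, 2 were called in TA, both lower, and 2 in SOL, 1 in each direction, beside 14.8% and 7.1% of all genes. Prkaa2, the alpha-2 catalytic subunit of AMP-activated kinase, which phosphorylates CRY1, was lower in mKO in both, by -0.19 ± 0.03 in TA (limma adjusted p = 1.38e-05) and -0.19 ± 0.03 in SOL (limma adjusted p = 0.000125). Gsk3a, the sister gene of Gsk3b, was lower in mKO TA (-0.12 ± 0.04, limma adjusted p = 0.0201). Prkaa1, the alpha-1 subunit, was higher in mKO SOL (0.09 ± 0.03, limma adjusted p = 0.0374), a call lost in 18 of 36 runs that each left out 1 animal (differences between 0.08 and 0.10 over all 36). A rhythm was called in 1 of the 14, Csnk1g3 in mKO SOL (amplitude 0.22, limma adjusted p = 0.0252), beside 5.68% of all genes. This call was lost in 5 of the 36 (amplitudes between 0.19 and 0.25), with the F test over 6 time means and without ZT20. The median differences of the 14 genes were -0.05 in TA and 0.03 in SOL.

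Between muscles, 9 of these 14 genes were called in mKO and 11 in Ctrl, beside 48.2% and 42.9% of all genes. Higher in TA were 3 genes in mKO and 6 in Ctrl, among them Prkaa2 (0.49 in mKO and 0.49 in Ctrl), the phosphatase subunit Ppp1ca (0.36 and 0.35) and the phosphatase Ppp5c (0.10 and 0.13). Lower in TA were 6 genes in mKO and 5 in Ctrl, among them Csnk1g3, a casein kinase 1 gamma gene (-1.04 in mKO and -0.94 in Ctrl), Ppp2ca (-0.45 and -0.55) and Prkaa1 (-0.43 and -0.33). The 2 catalytic subunits of AMP-activated kinase thus ran opposite ways between the muscles.

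Of 19 measured ubiquitin ligase parts and deubiquitinases of clock proteins, 2 were called in TA, both lower in mKO, and 4 in SOL, 2 higher and 2 lower, beside 14.8% and 7.1% of all genes. Usp2, a deubiquitinase that acts on clock proteins, ran from 9.74 to 10.6 in mKO TA, with a median of 10.2, against 10.2 to 11.3 in Ctrl TA, with a median of 10.9, so the ranges overlapped. It was lower by -0.61 ± 0.03 in TA (limma adjusted p = 2.63e-14) and -0.19 ± 0.04 in SOL (limma adjusted p = 0.00075). Usp2 was rhythmic in each muscle and genotype, with amplitudes of 0.37 in mKO TA and 0.54 in Ctrl TA, and 0.46 in mKO SOL and 0.62 in Ctrl SOL. Mycbp2, a large ligase, was lower in mKO TA (-0.18 ± 0.04, limma adjusted p = 0.000424). In mKO SOL, Fbxw7, an F-box protein (0.18 ± 0.05, limma adjusted p = 0.0094), and Ddb1, a Cul4 ligase adaptor (0.12 ± 0.03, limma adjusted p = 0.0102), were higher and the deubiquitinase Usp7 was lower (-0.15 ± 0.04, limma adjusted p = 0.0131). Within the BM3 animals alone, Prkaa2 in both muscles and Usp2 in TA passed, and the other genotype calls named for the 2 lists did not. Without ZT20, where series and genotype cannot be told apart, the SOL calls of Fbxw7, Ddb1 and Prkaa1 were lost.

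Further rhythms in this list were called in mKO SOL for Fbxw7 (0.19, limma adjusted p = 0.0146, lost under 4 of 11 alternatives) and Cul4a (0.12, limma adjusted p = 0.0433, lost in 10 of the 36 and under 5 of 11) and in Ctrl SOL for Cul4b (0.17, limma adjusted p = 0.0385, lost in 9 of the 36 and under 7 of 11), the last 2 being scaffold proteins of Cul4 ligases. With Usp2, rhythms were called for 3 of the 19 genes in mKO SOL and 2 in Ctrl SOL, beside 5.68% and 6.05% of all genes. In mKO TA and Ctrl TA 1 gene each was called, beside 1.76% and 2.7%. Between muscles 15 of the 19 genes were called in mKO and 15 in Ctrl, beside 48.2% and 42.9% of all genes. Higher in TA were 8 genes in mKO and 9 in Ctrl. Det1 (0.35 in mKO and 0.34 in Ctrl) and the ring protein gene Rbx1 (0.31 and 0.28) had the smallest p in both genotypes. The third by p was Usp9x in mKO (0.20) and Stub1 in Ctrl (0.24), and both of these were called in the other genotype as well. Lower in TA were 7 genes in mKO and 6 in Ctrl, among them Mycbp2 (-0.56 in mKO and -0.37 in Ctrl), Fbxw7 (-0.80 and -0.56), Usp2 (-0.46 and -0.05, the second short of the threshold) and Cul4b (-0.19 and -0.19).

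Tcap and the Per genes, whose proteins these enzymes act on, were lower in mKO in at least 1 muscle. Tcap, whose protein FBXL21 marks in mouse muscle, ran from 10.3 to 11.2 in mKO TA, with a median of 10.8, against 11.3 to 12.3 in Ctrl TA, with a median of 11.7. The highest mKO TA array (11.24) lay just under the lowest Ctrl TA array (11.30), and how many of all genes were so separated was not counted. Tcap was lower by -0.96 ± 0.08 in TA (0.51-fold, limma adjusted p = 7.93e-11). In SOL it ran from 10.8 to 11.5 in mKO, with a median of 11.1, against 11.4 to 12.1 in Ctrl, with a median of 11.8, so the ranges overlapped. There it was lower by -0.72 ± 0.04 (0.61-fold, limma adjusted p = 7.66e-14). Its amplitude was 0.20 in mKO SOL and 0.26 in Ctrl SOL, with peaks at ZT14.1 and ZT14.0, both past the threshold.

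With Cry1 and Cry2, all 6 such transcripts were called in TA and 4 in SOL, with 1 higher in each, beside 14.8% and 7.1% of all genes. Per3 was lower in mKO by -1.02 ± 0.05 in TA (limma adjusted p = 1.29e-15) and -0.57 ± 0.06 in SOL (limma adjusted p = 9.83e-09), and Per2 by -0.42 ± 0.03 (limma adjusted p = 6.68e-11) and -0.25 ± 0.06 (limma adjusted p = 0.00351). Per1 (-0.67 ± 0.06, limma adjusted p = 2.06e-09) and Cry2 (-0.18 ± 0.03, limma adjusted p = 0.000187) were lower in mKO TA. Cry1 was higher in mKO by 0.18 ± 0.04 in TA (limma adjusted p = 0.000685) and 0.19 ± 0.04 in SOL (limma adjusted p = 0.00352). The calls of Cry1 in both muscles and of Per2 in SOL were lost within BM3 and within BM2 and BM2*, and that of Cry2 in TA within BM3. The Csnk1e difference was thus smaller than those of Per3 and Tcap in both muscles on the log2 scale, and the test of these differences against each other was not run.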

How the data were processed

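RNA of TA and SOL was hybridised to 72 Affymetrix whole-transcript arrays, 1 for each muscle of 36 animals. The deposited values were log2 signals made with RMA (no version), as the submitters' processing notes state; further steps and versions are not given in the sources used here. The table held 21225 probe sets, 20239 with 1 gene symbol and 986 unnamed, and the 20239 were tested with no filter. Genotype, rhythm and muscle differences were fitted with limma 3.58.1 in R 4.3.3 (lmFit, eBayes): per muscle with a term for each genotype and time, with a cosine and sine of 24 h, and on TA minus SOL within animals, which the labels pair. The deviations of such pairs correlated with a median r of 0.046 (over 0.1 in 11 of 36 pairs). Each test was adjusted across the 20239 genes with the Benjamini-Hochberg method, with a threshold of 0.05, and error values are standard errors of the fit. The tests were checked on simulated data.

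Marker sums are log2 of summed linear signals. No 2 arrays were copies (highest r = 0.996); precision is limited by how many arrays there are. Labels name separate animals for the 3 replicates of a group. The 7 genes and the lists were chosen with earlier results of these data known. Named are the 7 genes, 6 substrates, up to 3 called genes per direction of 2 further enzyme lists, and the 3 closest courses of each gene. Alternatives were filtering, scaling, array weights, the identification series, a replicate block, another rhythm test, and leaving out animals or a time. Promoters are from RefSeq (GRCm38.p6).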

Additional observations from a re-analysis of the deposited data

Results flagged for a closer look

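Among the enzymes and substrates, these results differed between groups by a test of the difference itself, all with limma and adjustment over all genes. The mKO minus Ctrl difference in TA less that in SOL was -0.42 for Usp2 (adjusted p = 4.86e-07), -0.20 for Mycbp2 (0.00714), -0.24 for Fbxw7 (0.0308, lost in 14 of 36 runs that each left out 1 animal, with -0.28 to -0.21 over all 36), -0.47 for Per1 (5.83e-05) and -0.45 for Per3 (1.71e-06). The call of Mycbp2 was lost without ZT20. That of Fbxw7 was lost under 4 of 9 alternatives, among them the identification series as a term and the fit without ZT20. The rhythm in mKO differed from that in Ctrl for Per1 and Cry2 in TA and for Arntl in both muscles. This test takes the cosine and sine terms together, so a shift of the peak counts as well as the amplitude. With its adjusted p, the amplitude in mKO less that in Ctrl was -0.49 for Per1 in TA (0.00101) and -0.34 for Cry2 in TA (0.000346). For Arntl it was -0.76 in TA (1.7e-05) and -0.75 in SOL (1.33e-05). Of these rhythm differences, only that of Arntl in TA passed within the BM3 animals. Between the Ctrl rhythms of TA and SOL, the distance of the fitted cosines was 0.34 for Per3 (0.00107) and 0.33 for Arntl (0.0238), that of Arntl was lost in 3 of 36 runs that each left out 1 animal, and neither passed when the muscles were not paired by animal. None of the 7 kinase and ligase genes differed between muscles or in rhythm in this way.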

How the results depend on the processing

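Over the alternatives, 7422 of the single values of the 7 genes kept direction and call, 13 gained a call, 21 lost one, 162 uncalled values changed sign by less than 1 standard error of the reported value, and 16 turned by more. The number of the 7 genes called changed as follows: for genotype in TA 3 with array weights (Csnk1d -0.08 and Gsk3b -0.09 joined Csnk1e), for genotype 0 in TA and 0 in SOL within BM2 and BM2* animals, for single times in SOL 0 with the identification series as a term and 0 without ZT20 (a setting added after seeing the data, like that without the animal with liver transcripts), and for the rhythm in Ctrl TA 1 with genes above the median level, a filter that leaves out Fbxl21, and 1 after quantile normalisation. Leaving out 1 animal changed no such count. The values that turned by over 1 standard error were all short of the threshold: Btrc between muscles in Ctrl at -0.0078 after quantile normalisation and -0.0081 with the series as a term; with array weights Fbxl21 in SOL at ZT0 -0.13 and Btrc in SOL at ZT16 0.078; with the series as a term Csnk1d 0.020 and Btrc 0.10 in TA at ZT20; within BM3 the genotype differences of Csnk1d -0.017 and Btrc -0.049 and the amplitude differences of Fbxw11 -0.045 and Gsk3b 0.027, all in SOL; within BM2 and BM2* Fbxw11 in SOL -0.050; without ZT20 the amplitude difference of Fbxl21 in SOL 0.051. Without single replicates, by the same measure, Gsk3b in TA at ZT0 ran from -0.11 to 0.062, Btrc in SOL at ZT12 from -0.019 to 0.16, Fbxl21 in TA at ZT16 from -0.12 to 0.29 and Csnk1d in SOL at ZT16 from -0.094 to 0.020. The cause was not tested. Same-letter mKO and Ctrl animals were not treated as pairs in the main fit. The deviations of their arrays correlated with a median r of 0.153 (over 0.1 in 21 of 36 pairs), against 0.046 (11 of 36) for the 2 muscles of 1 animal. With the letter as a replicate block Csnk1e was -0.27 in TA (limma adjusted p = 2.0e-07) and -0.25 in SOL (8.45e-07). No count of called genes among the 7 changed, and the ZT16 difference of Csnk1e in SOL passed (limma adjusted p = 0.0451). Genes called in TA between genotypes were 5388 with array weights, 1882 within BM3 and 377 within BM2 and BM2*, against 3000; in SOL 579 and 167 within these series, against 1436. For the rhythms in mKO SOL and Ctrl SOL, the test over 6 time means called 565 and 713 genes, against 1149 and 1224, and in mKO TA and Ctrl TA 214 and 335, against 357 and 547; within BM3 these were 273, 394, 160 and 156, and without ZT20 579 and 803 in SOL. With array weights 563 genes had a rhythm in mKO TA and 1201 an interaction of genotype and muscle, against 549. Rhythm differences between genotypes in SOL, 8 genes, came to between 0 and 14, in TA, 21 genes, to 2 within BM3 and 10 without ZT20, and those between the muscles of Ctrl, 106 genes, to 161 after quantile normalisation, 57 unpaired and 38 without ZT20. Unpaired tests of the muscles changed no call of the 7 genes. Of 121 called results of the other enzymes and substrates, 46 lost their call under at least 1 alternative and 15 without some animal, and none turned. Low-level Fbxl21 had the widest intervals, so small changes in it were not detectable.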
